A study of Homo sapiens with 16 samples.

Results

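The genes that carry a cell from G1 into S phase were examined in 2 established lines of human breast cancer cells that the labels call ER negative, MDA-MB-231 with mesenchymal features and MDA-MB-468 with basal epithelial ones. The members are 10 genes, found in the deposited table by mapping its Ensembl identifiers to gene symbols: the D cyclins CCND1 and CCND3, the E cyclins CCNE1 and CCNE2, cyclin A2 (CCNA2), the kinases CDK2, CDK4 and CDK6, and the inhibitors CDKN1A (p21) and CDKN1B (p27). All 10 were found among the 18332 genes of the table, and all 10 passed the filter on low values in both lines. They were chosen on their normalized read counts in the 4 groups, with results of these data known, so every difference given for them below is a description of these libraries, with its standard error and interval, and no p-value is attached to it.

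Each line was grown for 48 hours in 5 mM glucose (low glucose) or 25 mM glucose (high glucose), with 4 replicates in each of the 4 groups and 16 libraries in all. According to the study's methods the glucose media held no serum, and cells were first conditioned in low-glucose medium. They were then switched to 25 mM glucose or, as controls, kept at 5 mM. MDA-MB-231 was maintained in DMEM and MDA-MB-468 in RPMI, and this medium was removed before the glucose media were added. The low and high glucose media among the reagents are DMEM, and the base medium used for each line is not stated. Line and culture history therefore cannot be told apart. No osmolarity control is among the 16 libraries. The labels place the cells in T25 flasks and do not say whether the 4 replicates were separately grown cultures, so intervals and p-values measure the spread between these libraries, which may be technical. MDA-MB-468 is known for loss of RB1, and MDA-MB-231 for deletion of the CDKN2A and CDKN2B region.

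In G1, D cyclins activate CDK4 and CDK6, and E and A cyclins activate CDK2. These kinases phosphorylate RB1, which then releases E2F factors, and E2F factors drive the genes of S phase, CCNE1, CCNE2 and CCNA2 among them. CDKN1A and CDKN1B bind and restrain the CDK2 complexes and can also help D cyclins to assemble with their kinases. D cyclins respond to growth factors, while E and A cyclins follow the cell's position in the cycle. In bulk RNA a change in the share of cells in each phase and a change in RNA per cell cannot be told apart.

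The libraries held between 14094597 and 24425916 recovered reads, and 3 reads corresponded to between 2.14 and 3.43 normalized read counts, the unit used for levels below (reads divided by the authors' size factor for the library). The mesenchymal markers VIM, ZEB1, AXL and FN1 were high in MDA-MB-231, with 1427 normalized read counts or more in every library, and the epithelial markers CDH1, KRT5, KRT6B, KRT14 and ESRP1 were high in MDA-MB-468, with 424.5 or more, against at most 23.1 in MDA-MB-231. The other 3 of the 8 epithelial markers were higher in MDA-MB-468 but present in MDA-MB-231, where EPCAM ran from 198.4 to 244, CLDN4 from 1531 to 2028 and EGFR from 8210 to 9304. SPARC, another mesenchymal marker, was near the floor in both lines (at most 11.8), and CD44 was high in both. Over the 7 mesenchymal markers, CAV1 included, limma (adjusted p under 0.05) placed 5 lower and 1 higher in low-glucose MDA-MB-468 than in MDA-MB-231. In high glucose it placed 5 lower and 2 higher, so not every listed marker lay higher in MDA-MB-231. Of all genes, 40.4% were lower and 45.0% higher in low glucose, and 40.6% and 44.6% in high glucose. ESR1 reached at most 2.92 in MDA-MB-231 cells and 69.7 in MDA-MB-468, and PTPRC, a leukocyte marker, at most 16.4 in any library. In the fit over all genes, 15.1% of 14884 genes differed between glucose groups in MDA-MB-231 (850 higher and 1395 lower in high glucose, or 1027 and 1114 after quantile normalization), and 47.6% of 15757 genes did so in MDA-MB-468. A gene is said to be called, or to have risen or fallen, where limma gave an adjusted p under 0.05 over all genes tested.

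CCND1 and CDKN1A set the lines apart most among the 10 genes. In RPKM (reads scaled to transcript length and library size), the scale on which levels of different genes were compared, CCND1 led the 10 genes in MDA-MB-231, with 321 ± 8.58 (SD, n = 4) in low and 284 in high glucose. It ranked 180 of 17418 genes of the table in low-glucose MDA-MB-231 and 3077 in low-glucose MDA-MB-468, where its level was 24.3. CDK4 led in MDA-MB-468, with 65.9 RPKM in low and 65.1 in high glucose.

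In low-glucose MDA-MB-231 the order of RPKM levels ran from CCND1 through CDKN1A (95.4), CDK4 (79.4), CCND3 (53.8), CCNA2 (47), CDKN1B (21.7), CDK2 (18.7), CDK6 (9.98) and CCNE2 (6.68) to CCNE1 (3.08). No neighbours in that order overlapped in their replicates. In high glucose CDK4 (86.6) and CDKN1A (85) overlapped, as did CCNE2 (3.97) and CCNE1 (3.16), and the other neighbours stayed apart. In low-glucose MDA-MB-468 CDK4 was followed by CCND3 (27) and CCND1 (24.3), whose replicates overlapped, then by CCNA2 (21.6), CDK2 (19.4), CDKN1A (16.4), CDKN1B (14.2), CCNE2 (12.6) and CCNE1 (9.65), and CDK6 was lowest (6.03). High glucose moved CDKN1A up to 28.6 RPKM in that line, where it overlapped with both CCND3 (32.1) and CCNA2 (27.8).

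**Figure D1:**
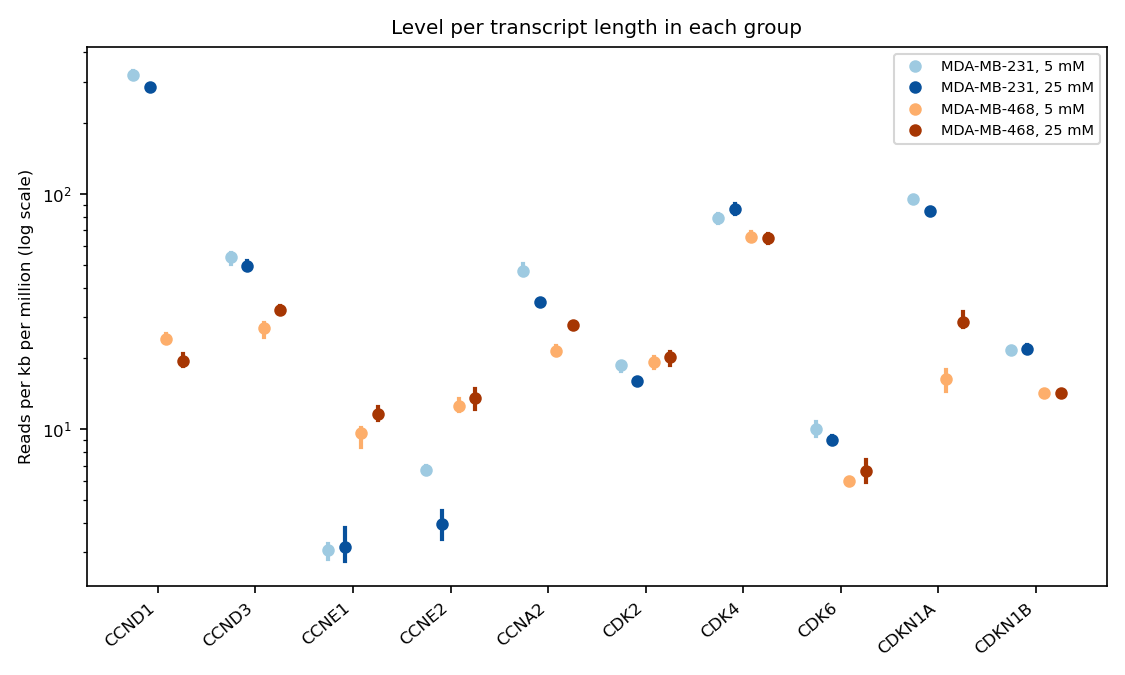
Level of each of the 10 genes in RPKM, reads scaled to transcript length and library size (log scale), in the 4 groups; points are means of 4 replicates and bars run from the lowest to the highest replicate. CCND1 stands at 321 in low-glucose MDA-MB-231 and at 24.3 in low-glucose MDA-MB-468, while CDK2 lies between 16 and 20.3 in all 4 groups.

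Between the lines in low glucose, 9 of the 10 genes were called (7 lower and 2 higher in MDA-MB-468), beside 85.4% of all genes tested (40.4% lower and 45.0% higher). In high glucose all 10 were called (7 lower and 3 higher), beside 85.2% (40.6% lower and 44.6% higher). With so large a background, these counts say little about the 10 genes, and their sizes matter more. In low glucose the log2 difference, MDA-MB-468 minus MDA-MB-231, was -3.86 for CCND1 (SE 0.03, 95% interval -3.93 to -3.79) and -2.68 for CDKN1A (SE 0.06). The E cyclins lay higher in MDA-MB-468, CCNE1 by 1.50 (SE 0.09) and CCNE2 by 0.78 (SE 0.08). CDKN1B differed by -0.75 in low and -0.71 in high glucose (SE 0.03 each). CDK2 was the closest between the lines, with -0.09 in low glucose (95% interval -0.18 to 0.01) and 0.25 in high glucose (95% interval 0.16 to 0.35). Its line difference depended on the processing: with a correction for transcript length it was -0.33 in low and 0.02 in high glucose, a correction that moved the median of all genes in the low-glucose line comparison from 0.08 to -0.06. Without low-glucose MDA-MB-231 replicate 4 the difference in low glucose was -0.11 and was called, and with TMM normalization and in edgeR it was -0.12 and called.

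The make-up of the D cyclins and of the inhibitors differed between the lines in both glucose groups on the RPKM scale, and that of the E cyclins did so in low glucose. CCND1 made up 85.1% ± 0.847 (SD, n = 4) of the summed D cyclins in low-glucose MDA-MB-231 and 47.4% ± 1.47 in low-glucose MDA-MB-468. High glucose left the MDA-MB-231 share at 84.6%, while in MDA-MB-468 it was 37.8% ± 1.34, with all 4 libraries (36.2% to 39.3%) below the 4 low-glucose ones (46.1% to 49.5%). CCNE1 made up 31.6% ± 1.56 of the E cyclins in low-glucose MDA-MB-231 and 44.3% ± 2.37 in high glucose, again without overlap. The corresponding shares in MDA-MB-468, 43.3% ± 2.88 and 46.1% ± 2.81, overlapped, and in high glucose the lines overlapped as well. CDK4 made up between 88.8% and 91.6% of CDK4 and CDK6 together in the 4 group means. Shares and RPKM orders between genes rest on 1 canonical transcript length per gene, 1865 nucleotides for CDK4 and 11663 for CDK6. Other lengths would change them. CDKN1B, for example, has 2411 nucleotides in that transcript and 9255 exonic bases in the annotation. CDKN1A made up 81.5% ± 0.732 of the 2 inhibitors in low-glucose and 79.5% ± 0.735 in high-glucose MDA-MB-231, against 53.6% ± 2.23 and 66.8% ± 1.45 in MDA-MB-468.

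High glucose went with lower levels of 7 of the 10 genes in MDA-MB-231 (CCND1, CCND3, CCNE2, CCNA2, CDK2, CDK6 and CDKN1A), beside 9.37% of all genes called lower and 5.71% called higher, and the other 3 were not called. In MDA-MB-468, 5 were called higher (CCND3, CCNE1, CCNA2, CDK6 and CDKN1A), beside 24.9% of all genes called higher, and CCND1 was called lower, beside 22.7%. The median log2 difference of the 10 genes was -0.18 in MDA-MB-231 cells and 0.15 in MDA-MB-468, and that of all genes tested was 0.00 in each line. The high-glucose libraries did not overlap with the low-glucose ones for 6 of the 10 genes in MDA-MB-231, beside 18.7% of all genes, and for 5 in MDA-MB-468, beside 42.5%. The response itself was called as different between the lines for 6 genes (CCND3, CCNE2, CCNA2, CDK2, CDK6 and CDKN1A), each time in the direction of MDA-MB-468. This stood beside 30.9% of 17115 genes called in either direction, 17.0% in that one. Fold changes are on the log2(value + 1) scale.

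**Figure D2:**
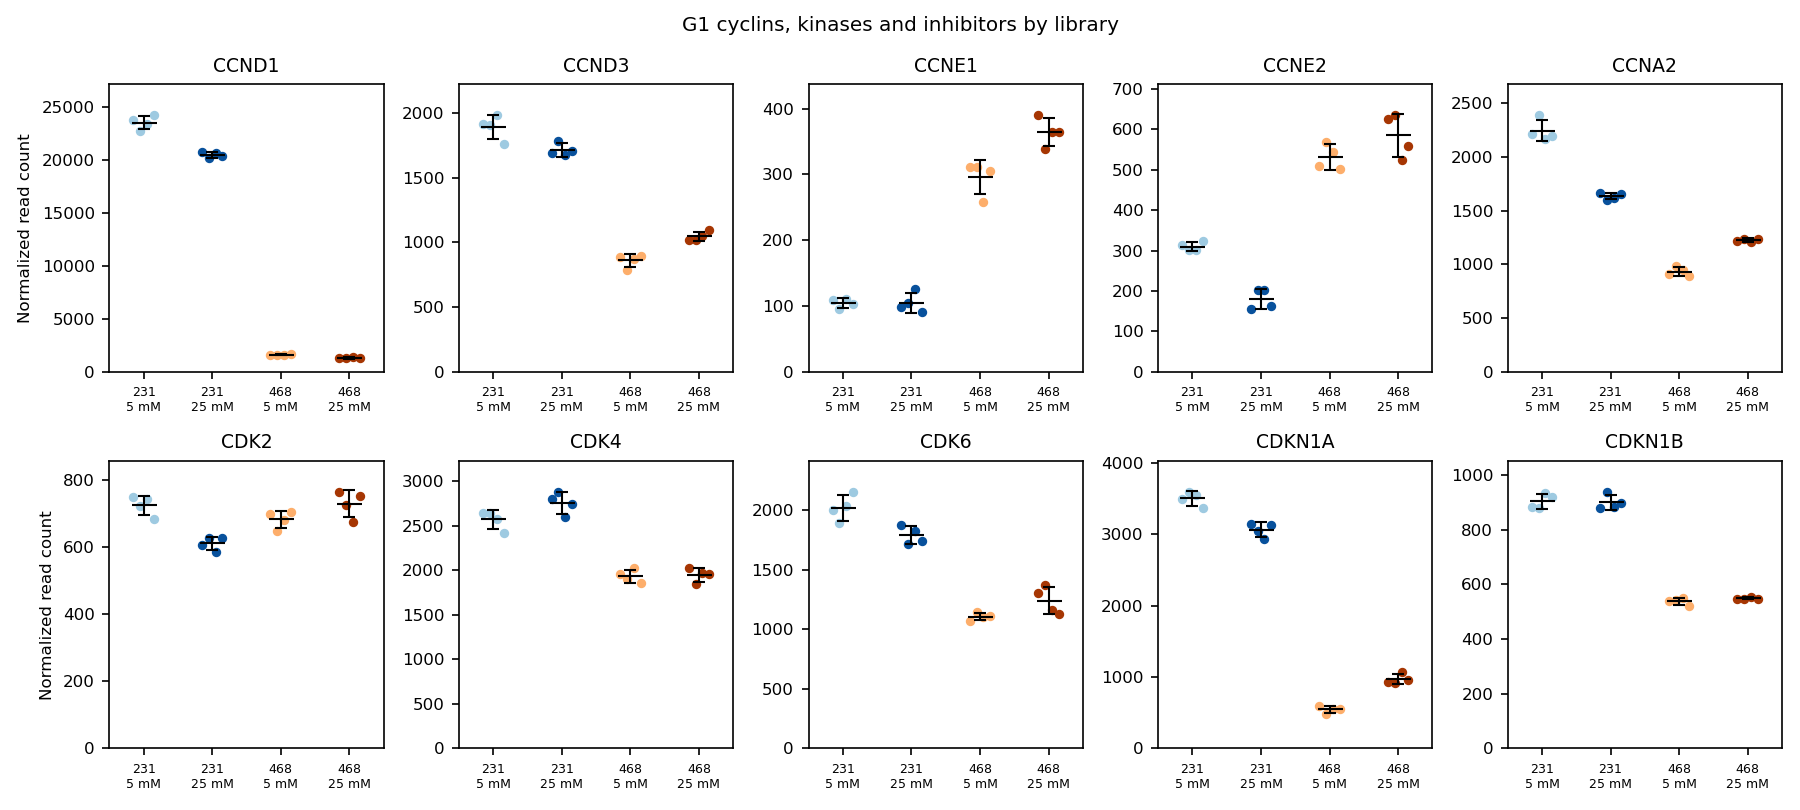
Normalized read counts of the 10 genes in the 16 libraries (points), with the mean and SD of each group of 4 (black); each panel has its own axis, starting at 0. CCNA2 falls from 2241 to 1634 in MDA-MB-231 cells and rises from 931.6 to 1225 in MDA-MB-468, while the CDKN1B means in low and high glucose are 905.2 and 900.7, then 538 and 549.3.

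**Figure D3:**
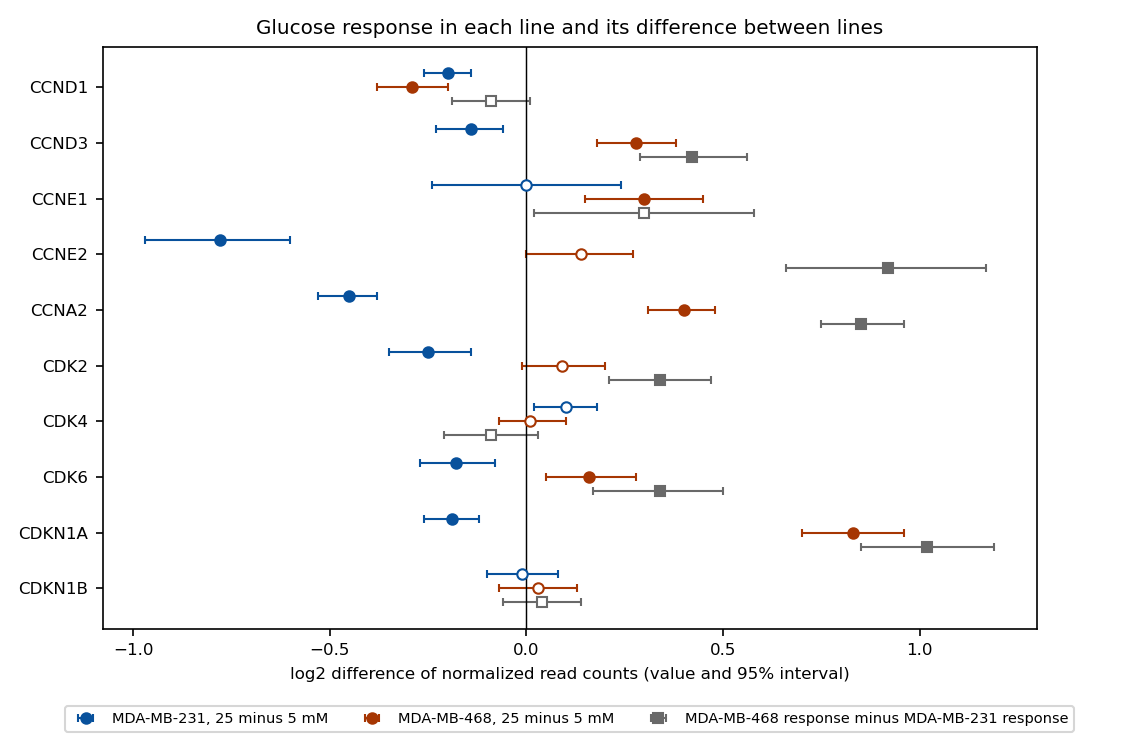
Log2 difference between 25 and 5 mM glucose in each line (circles) and the MDA-MB-468 response minus the MDA-MB-231 response (squares), with 95% intervals. Filled symbols were called at an adjusted p under 0.05, a description only, since the members were chosen on these values. CCND1 lies below 0 in both lines (-0.20 and -0.29), while CDKN1A (-0.19 and 0.83) and CCNA2 (-0.45 and 0.40) lie on opposite sides of 0.

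CCND1 (chr11:69455924-69469242, GRCh37), the growth factor responsive D cyclin, was the member that fell in both lines. Low-glucose MDA-MB-231 libraries held 23761, 22780, 23444 and 24243 normalized read counts and high-glucose ones 20790, 20176, 20681 and 20372. In MDA-MB-468 the low-glucose values were 1631, 1612, 1563 and 1676 and the high-glucose values 1259, 1326, 1423 and 1300. Every high-glucose library lay below every low-glucose library of its line. The log2 difference was -0.20 in MDA-MB-231 (SE 0.03, 95% interval -0.26 to -0.14) and -0.29 in MDA-MB-468 (SE 0.04), and it stayed within -0.22 to -0.16 over the alternatives in MDA-MB-231. The difference between these responses, -0.09 (SE 0.05), was not called. Without high-glucose MDA-MB-468 replicate 3 it was -0.12 and was called. Of 13573 genes tested in both lines, 410 were called lower in both. LTO1, which shares 10.4% of the exonic bases of CCND1 on the opposite strand, differed by 0.12 (SE 0.07) in MDA-MB-231 cells and by -0.30 (SE 0.06) in MDA-MB-468.

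CCND3 (chr6:41902672-42018095), a second D cyclin, differed in opposite directions. In MDA-MB-468 it rose from 886.5, 786.3, 873.5 and 897.3 to 1019, 1019, 1051 and 1093 normalized read counts, without overlap, by 0.28 on the log2 scale (SE 0.05). In MDA-MB-231 the low-glucose values were 1916, 1905, 1981 and 1760 and the high-glucose values 1693, 1786, 1671 and 1702. Here the lowest low-glucose library lay below the highest high-glucose one, and the difference of -0.14 (SE 0.04) was the least stable of the 7 called in that line. Its call was lost in 8 of 20 alternatives, among them quantile normalization (-0.11) and 6 that left out a library (low-glucose replicate 1, 2 or 3, high-glucose replicate 1, 3 or 4), with differences between -0.14 and -0.12 in those 6. The response differed between the lines by 0.42 (SE 0.06).

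CCNE1 (chr19:30302898-30315219), an E cyclin and activator of CDK2, had the lowest RPKM in MDA-MB-231. Its low-glucose values there were 109.3, 94.9, 110.6 and 102.8 normalized read counts and its high-glucose values 98.3, 104.1, 126.3 and 91.3, which overlapped throughout. The log2 difference was 0.00 with a 95% interval of -0.24 to 0.24, so a change within that interval is not excluded. In MDA-MB-468 the values of 311.6, 311.9, 258.2 and 304.5 in low glucose lay below those of 389.8, 338.6, 365.1 and 365 in high glucose, and CCNE1 rose by 0.30 (SE 0.07). The difference of the responses, also 0.30 (SE 0.13), was not called, and it was 0.39 and called without high-glucose MDA-MB-231 replicate 3, the highest of its group.

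CCNE2 (chromosome 8), the other E cyclin, had the largest fall of the 10 genes in MDA-MB-231. Its group mean there was 309.7 ± 10.6 normalized read counts in low glucose (300.4 to 322.8) and 180.9 ± 24.8 in high glucose (155.7 to 202.5). The log2 difference was -0.78 (SE 0.09, 95% interval -0.97 to -0.60). In MDA-MB-468 the low-glucose libraries held 509.3, 569.6, 544.4 and 503 and the high-glucose ones 625.1, 634.7, 524.2 and 558.9. These overlapped, and the difference of 0.14 (SE 0.06) was not called. It was 0.19 and called without high-glucose replicate 3, the lowest of its group. The responses differed by 0.92 (SE 0.12). In the annotation 37% of the exonic bases of CCNE2 are shared with INTS8 on the opposite strand. The study's methods name a stranded library kit for the patient tumors, and their cell line passage names none. Whether the counting used strand is not stated, so reads of the pair may not be told apart. The log2 difference of INTS8 was -0.06 in MDA-MB-231 (SE 0.08) and 0.13 in MDA-MB-468 (SE 0.04).

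CCNA2 (chr4:122737599-122745038), the cyclin of S phase and a textbook E2F target, differed in opposite directions in the lines. In MDA-MB-231 the values were 2214, 2386, 2170 and 2193 normalized read counts in low and 1663, 1602, 1614 and 1655 in high glucose. In MDA-MB-468 they were 907.8, 983.2, 947.9 and 887.4 in low and 1221, 1237, 1204 and 1237 in high glucose. The groups did not overlap in either line. CCNA2 fell by 0.45 on the log2 scale in MDA-MB-231 (SE 0.04) and rose by 0.40 in MDA-MB-468 (SE 0.04), and the responses differed by 0.85 (SE 0.05). The line difference narrowed with it, from -1.27 in low glucose to -0.42 in high glucose. EXOSC9, whose exons cover 9.24% of the exonic bases of CCNA2 on the opposite strand, differed by -0.26 (SE 0.06) and 0.10 (SE 0.07).

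CDK2 (chr12:56360565-56366573), the kinase of the E and A cyclins, fell in MDA-MB-231. Its values there were 748.1, 722.2, 744.3 and 684.7 normalized read counts in low glucose and 605.2, 625.8, 586.1 and 627.7 in high glucose. The groups lay apart, with a log2 difference of -0.25 (SE 0.05). In MDA-MB-468 the values ran from 648.1 to 706 in low and from 674.1 to 765.1 in high glucose, and the difference of 0.09 (SE 0.05) was not called. It was 0.13 and called without high-glucose replicate 3. The responses differed by 0.34 (SE 0.06).

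CDK4 (chr12:58141510-58149796), a kinase of the D cyclins, was called in neither line. MDA-MB-231 held 2568 ± 105 normalized read counts in low and 2753 ± 119 in high glucose (SD, n = 4), a log2 difference of 0.10 (SE 0.04) that was called only after quantile normalization (0.13). MDA-MB-468 held 1932 ± 73.1 and 1950 ± 78.4, a difference of 0.01 (SE 0.04), which had the opposite sign, -0.01, after quantile normalization. TSPAN31 on the opposite strand shares 44.2% of the exonic bases of CDK4, so the count of CDK4 is uncertain in the same way as that of CCNE2. Its log2 differences were 0.18 (SE 0.06) in MDA-MB-231 cells and 0.15 (SE 0.08) in MDA-MB-468, and neither was called.

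CDK6 (chr7:92234235-92465887), the other kinase of the D cyclins, had small differences of opposite sign. Its low-glucose MDA-MB-231 values of 1999, 1892, 2033 and 2153 normalized read counts lay above the high-glucose values of 1876, 1712, 1824 and 1738, a log2 difference of -0.18 (SE 0.04). In MDA-MB-468 the low-glucose values of 1068, 1140, 1100 and 1114 overlapped with the high-glucose values of 1307, 1368, 1158 and 1128. The difference of 0.16 (SE 0.05) was called there, but it was 0.14 without low-glucose replicate 1, 0.13 without high-glucose replicate 1 and 0.11 without high-glucose replicate 2, and was called in none of these. With length correction it was 0.29, and that of MDA-MB-231 was -0.11, both called. The difference between the responses was 0.34 (SE 0.08). In MDA-MB-231 the call was lost in a fit over all 16 libraries (-0.18). The longest transcript of the 10 genes is that of CDK6, with 11663 nucleotides. Across genes, Spearman's rho between transcript length and the log2 difference was -0.194 in MDA-MB-231 cells and -0.148 in MDA-MB-468.

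CDKN1A (chr6:36644237-36655114), the p21 inhibitor, had the largest response of the 10 genes in MDA-MB-468. The low-glucose libraries held 597.1, 487.7, 555.8 and 547 normalized read counts and the high-glucose libraries 926.5, 922, 1076 and 960.9. All high-glucose values lay above all low-glucose values, and the means differed 1.78-fold (log2 difference 0.83, SE 0.06, 95% interval 0.70 to 0.96). In MDA-MB-231 the values went the other way, from 3496, 3597, 3551 and 3368 in low glucose to 3152, 3052, 2929 and 3136 in high glucose. CDKN1A fell by 0.19 there (SE 0.03), without overlap, and the responses differed by 1.02 (SE 0.08). Its level in high-glucose MDA-MB-468 still lay 1.66 below that of MDA-MB-231 on the log2 scale (SE 0.06).

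CDKN1B (chr12:12838432-12875303), the p27 inhibitor, had a log2 difference no larger than 0.03 in size in either line. Its means in MDA-MB-231 were 905.2 ± 27.3 and 900.7 ± 26.7 normalized read counts in low and high glucose (SD, n = 4), and in MDA-MB-468 they were 538 ± 13 and 549.3 ± 4.12. The log2 differences were -0.01 (95% interval -0.10 to 0.08, and 0.01 after quantile normalization) and 0.03 (95% interval -0.07 to 0.13).

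Of the members called in opposite directions in the lines, CCNA2 and CDKN1A had the largest differences of response (0.85 and 1.02). The 250 bases before their RefSeq start sites (GRCh38.p14, printed 5′ to 3′ on the gene's strand) are shown to set these genes' proximal promoters side by side. CCNA2 lies on the minus strand (chr4:121823884-121824133) and CDKN1A on the plus strand (chr6:36678464-36678713). Capitals mark 2 motifs searched on both strands, the GC box, GGGCGG, which reads CCGCCC on the other strand, and the CCAAT box, which reads ATTGG there.
CCNA2: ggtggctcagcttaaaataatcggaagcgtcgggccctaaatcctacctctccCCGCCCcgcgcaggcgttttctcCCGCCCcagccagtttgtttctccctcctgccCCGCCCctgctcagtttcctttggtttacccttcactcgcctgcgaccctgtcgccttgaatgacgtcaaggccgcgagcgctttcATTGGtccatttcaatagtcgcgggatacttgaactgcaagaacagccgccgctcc
CDKN1A: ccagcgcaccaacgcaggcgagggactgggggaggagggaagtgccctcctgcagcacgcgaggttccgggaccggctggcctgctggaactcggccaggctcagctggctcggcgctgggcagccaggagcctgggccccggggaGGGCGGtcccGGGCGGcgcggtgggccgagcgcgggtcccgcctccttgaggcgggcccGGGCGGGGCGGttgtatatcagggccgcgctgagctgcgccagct
CCNA2 held 3 GC boxes, all on the other strand, and 1 CCAAT box, and CDKN1A held 4 GC boxes, of which the last pair overlap by 1 base, and no CCAAT box. Among 35116 RefSeq promoters of the same length, 42.6% held a GC box, 13.9% held 3 or more, and 32% held a CCAAT box. These matches are descriptions of sequence only. Promoter entries were found for 7 of the 10 genes.

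Several partners of the 10 genes were present in only 1 of the lines or nearly so. RB1, the main substrate of the D cyclin kinases, had 1421 ± 81.5 normalized read counts in low-glucose MDA-MB-231 and 15.9 ± 4.52 in low-glucose MDA-MB-468, 89.3-fold fewer. In high glucose the means were 1260 ± 42.7 and 17.4 ± 2.06. CDKN2A, which encodes the CDK4 and CDK6 inhibitor p16 and the protein ARF, had 0 reads in all 8 MDA-MB-231 libraries and 987 ± 28.2 in low-glucose MDA-MB-468, at least 342.8-fold higher against a floor of 3 reads per library. CDKN2B, its INK4 neighbour, likewise had 0 reads in MDA-MB-231 cells and 904.5 ± 18.3 in low-glucose MDA-MB-468, at least 314.2-fold higher. CCND2, the D cyclin that is not among the 10 genes, had 236.7 ± 8.58 in low-glucose MDA-MB-231 and 0 reads in all 8 MDA-MB-468 libraries, at least 86-fold lower. Its glucose difference in MDA-MB-231, 0.06 (SE 0.08), was not called.

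**Figure D4:**
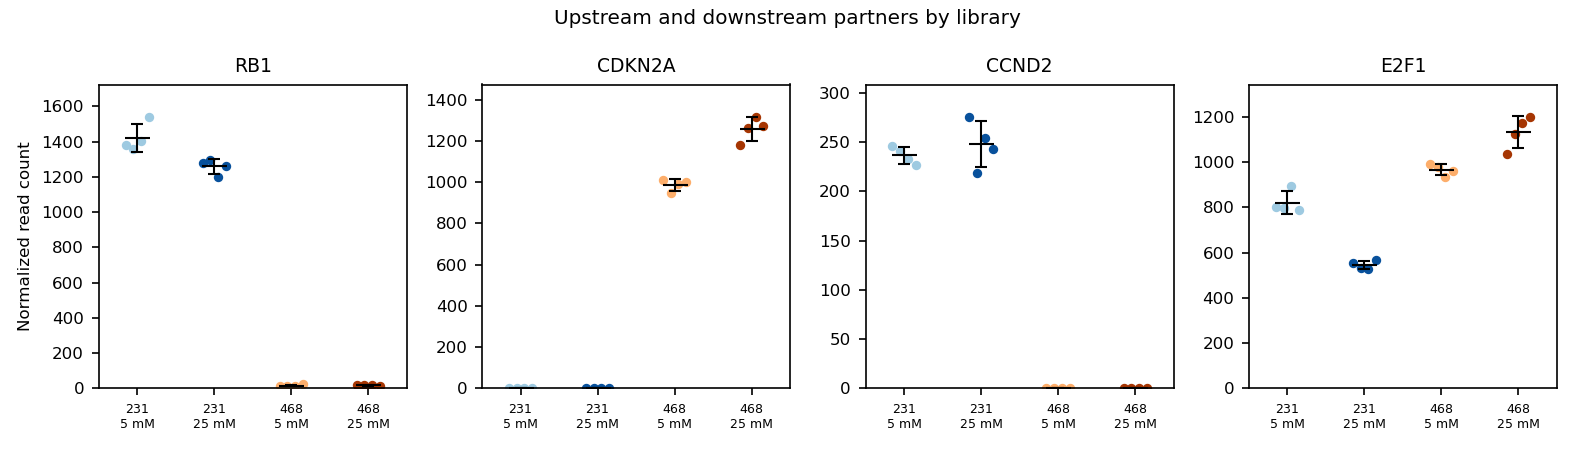
Normalized read counts of RB1, CDKN2A, CCND2 and E2F1 in the 16 libraries (points), with the mean and SD of each group of 4 (black); axes start at 0. RB1 and CCND2 are at or near 0 in MDA-MB-468 and CDKN2A is at 0 in MDA-MB-231, while E2F1 is present in all libraries and lies lower in high-glucose (545.3) than in low-glucose MDA-MB-231 (820.4).

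The partner lists were chosen with earlier results of these data known, and most list genes named below were picked because they were called. Their p-values are therefore not independent support. RB1 itself fell by 0.17 in MDA-MB-231 under high glucose (limma adjusted p = 0.014). That call was lost without high-glucose replicate 3 (-0.15, adjusted p = 0.0545) and in the fit over all 16 libraries. Of the 6 other genes listed as inhibitors of cyclin-dependent kinases, CDKN3 among them, 4 were tested in MDA-MB-231. There 1 rose and 3 fell (CDKN2C, CDKN2D and CDKN3), beside 5.71% and 9.37% of all genes. The 1 that rose was CDKN1C, with means of 215.7 normalized read counts in low and 261.7 in high glucose. In MDA-MB-468 the CDKN1C means were 88.5 and 69.3. In MDA-MB-468 3 of 6 rose and 2 fell, beside 24.9% and 22.7% of all genes. CDKN2A rose by 0.35 in MDA-MB-468 (adjusted p = 4.04e-06). CDKN2C (p18), an INK4 inhibitor, fell by 0.41 in MDA-MB-231 cells and rose by 0.63 in MDA-MB-468, a difference of responses of 1.04 (adjusted p = 1.93e-09). CDKN2D (p19), another of the family, fell in both lines, by 0.23 and by 1.08 (adjusted p = 4.64e-09 in MDA-MB-468).

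The E2F and DP factors fell in MDA-MB-231 in 4 of 10 cases, beside 9.37% of all genes, and rose in MDA-MB-468 in 5 of 10, beside 24.9%. Their medians were -0.06 and 0.08 against 0.00 over all genes. E2F1, an activating E2F, had 800.3, 798.5, 895.1 and 787.5 normalized read counts in low-glucose and 553.7, 530.1, 529.4 and 567.8 in high-glucose MDA-MB-231. It fell by 0.59 (adjusted p = 5.45e-07), and in MDA-MB-468 it rose by 0.23 (adjusted p = 0.000673), with a difference of responses of 0.82 (adjusted p = 1.73e-07). E2F2, also an activator, fell by 0.74 and rose by 0.25, and the atypical E2F8 fell by 0.67 and rose by 0.25, although DESeq2 did not call the rise of E2F8. TFDP1, the DP partner of the E2Fs, fell by 0.14 and rose by 0.11, and its rise was not called after quantile normalization (0.06). The p107 gene RBL1, an RB1 relative, fell by 0.27 in MDA-MB-231 (adjusted p = 0.0045). Its difference of 0.22 in MDA-MB-468 (adjusted p = 0.0207) lost its call without low-glucose replicate 1 (0.19) or 3 (0.21), without high-glucose replicate 2 (0.19) or 3 (0.20), and in DESeq2.

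**Figure D5:**
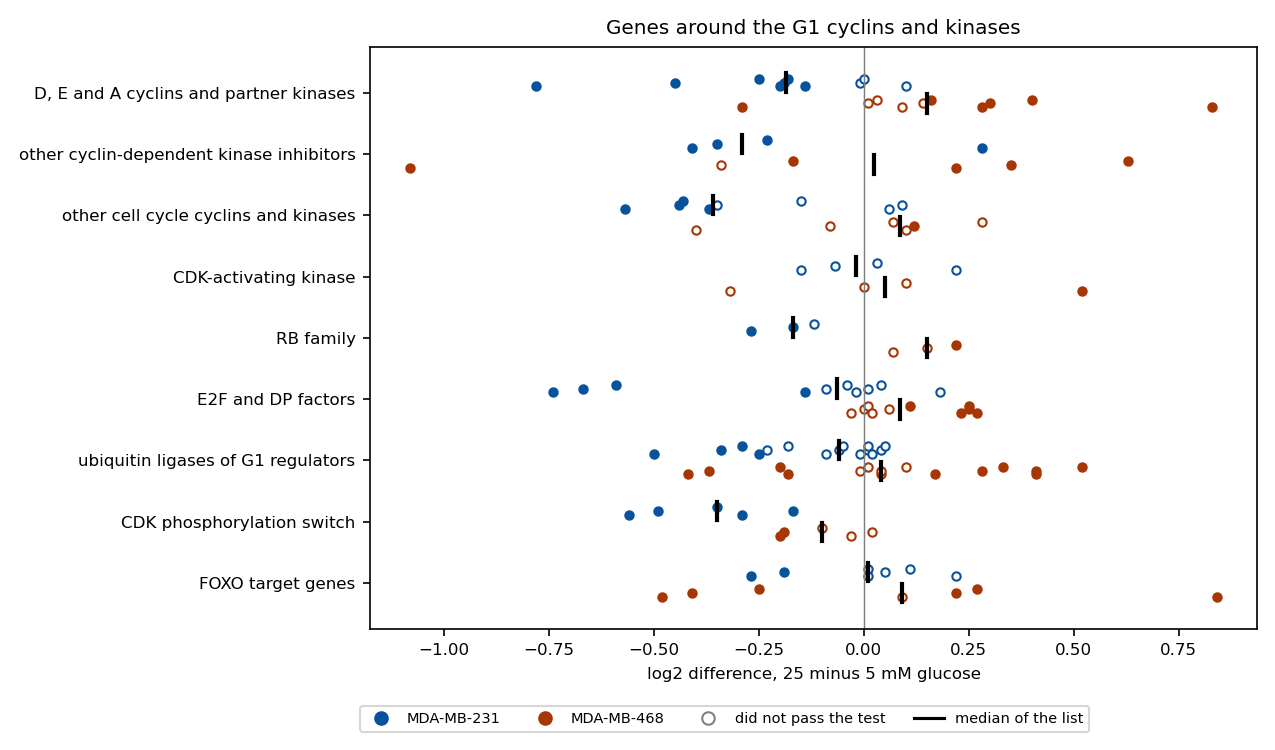
Log2 difference between 25 and 5 mM glucose for each tested gene of 9 lists, with MDA-MB-231 in blue and MDA-MB-468 in orange; filled points were called at an adjusted p under 0.05, open points were not, and black bars are list medians. The CDK phosphorylation switch has a median of -0.35 in MDA-MB-231 cells and of -0.10 in MDA-MB-468.

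Among 8 other cyclins and kinases of the cycle, 4 fell in MDA-MB-231 (median -0.36), beside 9.37% of all genes. In MDA-MB-468 1 of 6 tested rose, beside 24.9% of all genes. CDK1, the mitotic kinase, fell by 0.57 in MDA-MB-231 (adjusted p = 1.25e-07), and its 0.07 in MDA-MB-468 was not called. CCNB1, its B cyclin, fell by 0.37 (adjusted p = 9.61e-07) and rose by 0.12 in MDA-MB-468 (adjusted p = 0.007). The responses of both differed between the lines, by 0.63 and 0.50. All 5 genes of the switch that sets CDK phosphorylation fell in MDA-MB-231 (median -0.35), beside 9.37% of all genes. Among them, the phosphatase CDC25A fell by 0.49, and the inhibitory kinases PKMYT1 and WEE1 by 0.56 and 0.29. In MDA-MB-468, WEE1 and CDC25B fell, by 0.20 and 0.19, beside 22.7% of all genes, and the other 3 were not called. Of the 4 genes of the CDK-activating kinase list 1 was called, its assembly factor MNAT1. It rose by 0.52 in MDA-MB-468 (adjusted p = 7.03e-05), where 24.9% of all genes rose.

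The ubiquitin ligase genes that turn over G1 regulators numbered 15, of which 4 fell in MDA-MB-231, and 6 rose and 4 fell in MDA-MB-468, beside 9.37% of all genes falling in the former, and 24.9% rising and 22.7% falling in the latter. SKP2, the receptor that marks CDKN1B for destruction, had 324.6 ± 17.6 normalized read counts in low-glucose and 256.8 ± 24.3 in high-glucose MDA-MB-231, a fall by 0.34 (adjusted p = 0.00508). In MDA-MB-468 it differed by 0.01 (SE 0.04), or -0.00 after quantile normalization. DTL, the CUL4 substrate receptor that acts on CDKN1A in S phase, fell in both lines, by 0.50 and by 0.20, and FBXO4, an F-box protein, rose by 0.52 in MDA-MB-468 (adjusted p = 0.00413).

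MDM2, a ubiquitin ligase, fell by 0.35 in MDA-MB-468 (adjusted p = 2.1e-05). In MDA-MB-231 its -0.15 (adjusted p = 0.0214) lost its call in 7 alternatives, among them quantile normalization (-0.12), the fit over all 16 libraries (-0.15), and the fits without high-glucose replicate 1 (-0.15), 2 (-0.15) or 4 (-0.14). Of 7 FOXO targets tested, 2 fell in MDA-MB-231, beside 9.37% of all genes, and 3 rose and 3 fell in MDA-MB-468, beside 24.9% and 22.7%. Among these PIK3IP1, an inhibitor of PI3K, rose by 0.84 in MDA-MB-468 (adjusted p = 1.16e-07).

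The genes whose pattern was most like that of a member were found by Pearson's r of log2 values centred within each line over the 16 libraries, among 9484 genes with at least 100 normalized read counts on average in both lines. All points share the glucose contrast, so r describes these libraries and no p is given. ENC1 (r = 0.973), F3 (0.967) and SRPK1 (0.956) lay closest to CCND1. CDCA2 (0.956), TRIM24 (0.946) and RACGAP1 (0.945) lay closest to CCNE2, and TMEM109 (0.988), SDC1 (0.981) and PABPC4 (0.978) to CDKN1A. The mean of SDC1, a proteoglycan, went from 2145 to 1904 normalized read counts with high glucose in MDA-MB-231 cells, and from 3288 to 5056 in MDA-MB-468.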

How the data were processed

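RNA of 16 samples was sequenced. The study's methods give trimming, alignment with TopHat to hg19, DESeq2 and, for CPM values, edgeR, while the submitters' processing notes name hg38 and edgeR; the program that counted reads is not given in the sources used here. The deposited values were a normalized signal per gene, reads divided by the authors' size factor for each library. In 100% of values whole reads could be recovered (largest deviation 5.82e-05 reads), between 14094597 and 24425916 per library.

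Groups came from the labels. Genes with at least 0.5 CPM in 2 of the samples fitted entered a limma test (eBayes with trend, two-sided, version 3.58.1, R 4.3.3) on log2(value + 1), within each line and, for line differences and the difference of responses, over 4 group means of all 16 samples. Benjamini-Hochberg adjustment ran over all genes tested, with a threshold of 0.05. The members, lists and rules were chosen with earlier results of these data known, so they support nothing independently. The named genes were the members, 9 partners always named (1 other gene and its list are not reported here), and list genes called in both lines, or called in 1 with a log2 difference of 0.5 or more; not all are named in the text.

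Alternatives were other pseudocounts (0.5 and 5), filters, TMM and quantile normalization, length correction, a replicate block, leaving out each library, and edgeR 4.0.16 (quasi-likelihood) and DESeq2 1.42.0 on recovered reads, where edgeR called 2244 (MDA-MB-231) and 7484 genes (MDA-MB-468). The steps were tested on simulated counts holding 200 genes with a log2 change of 1: the MDA-MB-231 fit recovered 198, with 7 false calls among 14714 genes, and the difference of responses 181, with 8 among 15016. RPKM used canonical transcripts of a GENCODE annotation on GRCh37, which gave a length for 17418 genes. Floors cover counting error only.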

Additional observations from a re-analysis of the deposited data

Results flagged for a closer look

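The glucose response was called as different between the lines for 6 of the 10 members, a description of these libraries only. Values are limma differences of responses, MDA-MB-468 minus MDA-MB-231, on the log2 scale. The difference was 0.42 for CCND3, 0.92 for CCNE2, 0.85 for CCNA2, 0.34 for CDK2, 0.34 for CDK6 and 1.02 for CDKN1A. Of the partners always named, it was 0.82 for E2F1, 0.35 for SKP2, 0.39 for CDC25A, 0.50 for CCNB1, 0.63 for CDK1 and -0.21 for MDM2. The MDM2 difference lost its call in 11 of the fits that left out a library, with values between -0.21 and -0.17 in those fits.

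Of 72 groups of 4 libraries examined, 3 held a library set apart from the others by Dixon's criterion, where chance flags about 1 in 20. CCNE1 was at 258.2 normalized read counts in low-glucose MDA-MB-468 replicate 3, below the other 3, and E2F1 was at 895.1 in low-glucose MDA-MB-231 replicate 3, above them. RB1 was at 14.3 in high-glucose MDA-MB-468 replicate 4, at a level that rests on few reads.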

How the results depend on the processing

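Of the 200 values obtained for the 10 members under alternatives in MDA-MB-231, 178 kept their direction and side of the threshold, as did 190 of 200 in MDA-MB-468, 268 of 270 for the difference of responses, and 265 and 268 of 270 for the line differences in low and high glucose. Leaving out a library gave 1629 to 2389 called genes in MDA-MB-231 cells and 6759 to 7398 in MDA-MB-468, and 6 to 7 and 5 to 8 called members. Deviations of same-numbered libraries had weak mean correlations (-0.0291 in MDA-MB-231 cells and 0.0260 in MDA-MB-468), so the numbers gave no sign of pairing in MDA-MB-231. A replicate block gave 1624 called genes for glucose in MDA-MB-231, 7383 in MDA-MB-468 and 4774 for the difference of responses, with 6 members called in each. The block ended the calls of CCND3 (-0.14) and MDM2 (-0.15) in MDA-MB-231, and with length correction those of CDK6 (-0.11) and MDM2 (-0.11). In MDA-MB-468 3 of 4 libraries correlated best with their own number, so whether the numbers pair libraries in that line is not settled. In MDA-MB-231 0 of 4 did.

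Values that turned sign were uncalled both ways. CCNE1 in MDA-MB-231 was -0.02 after quantile normalization, -0.03 after length correction with or without the replicate block, and -0.09 to 0.06 without a library. CDKN1B in MDA-MB-231 was 0.01 after quantile normalization and -0.03 to 0.01 without a library. CDK4 in MDA-MB-468 was -0.01 after quantile normalization and after length correction with or without the block, and -0.01 to 0.04 without a library. SKP2 in MDA-MB-468 was -0.00 after quantile normalization and -0.01 to 0.03 without a library, and PKMYT1 was -0.01 and -0.09 to 0.08. For the difference of responses, CCND2 was 0.08 in DESeq2. CCNE1, with the fewest reads of the 10 genes, had the widest intervals, and RB1 in MDA-MB-468 rested on at most 25 reads in low glucose.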
